A study of Arabidopsis thaliana with 10 samples.

Results

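WRKY6 (AT1G62300), WRKY53 (AT4G23810) and STZ (AT1G27730) are stress-response transcription factor genes of Arabidopsis thaliana. Each was measured by 1 probe set naming it alone, so 3 of the 13287 genes named alone by a probe set are described, on an array of 22810 probe sets. The data were signals from 10 Affymetrix ATH1 arrays hybridised with total RNA from rosettes of untreated Col-0 plants, 4 weeks old and grown at 50% humidity and 22 °C. The groups were homozygous CesA4 plants (3 arrays), heterozygous CesA4 plants (3 arrays), homozygous CesA6 plants (2 arrays) and heterozygous CesA6 plants (2 arrays). The labels give the allele of the CesA4 line as irx5-2. They name the other line both AtCesA6 and irx6-1, whereas IRX6 in the RefSeq table is another name of COBL4, so the mutated gene of that line was not established here. All groups carry at least 1 mutant copy, since wild-type plants were not analysed here. The labels do not say whether arrays of a group came from separate plants, so errors and p-values measure the spread between arrays, which may be technical, and the small number of arrays limits the precision.

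WRKY proteins are plant transcription factors named after a conserved amino acid motif, and most bind a short DNA element called the W-box. WRKY6 and WRKY53 are both known from leaf senescence, the ordered breakdown of an ageing leaf, and from pathogen responses. WRKY53 is known as an early, positive regulator of senescence whose transcript also responds to hydrogen peroxide and salicylate. STZ, also called ZAT10, is a C2H2 zinc-finger protein with a repressor motif, induced by salt, cold, drought, wounding and excess light.

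Arrays of a group correlated with each other at 0.934 to 0.953 over the tested probe sets, against 0.872 for the least alike pair of all arrays. RCA (AT2G39730), Rubisco activase of green leaves, was bright on every array, at 9890.2 to 11975.1. SBPASE (AT3G55800), a Calvin cycle enzyme, was lower in homozygous than in heterozygous plants of the CesA4 line. It read 2576.9 to 3049.0 in homozygous and 3354.2 to 4052.1 in heterozygous CesA4 arrays (log2 change -0.40 ± 0.12, limma adjusted p = 0.0222). That call was lost in 5 of 19 alternatives, and the part of SBPASE in the values below was not tested. PYK10 (AT3G09260), a root beta-glucosidase and the only named gene of the 3 root markers, read 285.4 to 441.2 in homozygous and 101.3 to 309.0 in heterozygous CesA4 arrays, and 278.4 to 360.2 in homozygous and 97.3 to 121.4 in heterozygous CesA6 arrays. PYK10 therefore leaned towards homozygous plants in both lines, with limma adjusted p-values of 0.0764 in the CesA4 line and 0.052 in the CesA6 line, and its part in the values below was not tested. The 3′ over 5′ signal ratio of a control transcript is a measure of RNA integrity. That of GAPDH overlapped between all groups, at 1.51 to 1.94 in homozygous and 1.37 to 2.34 in heterozygous CesA4 arrays and 1.78 to 2.28 in homozygous and 1.68 to 2.20 in heterozygous CesA6 arrays. That of actin was far above that of GAPDH in every group, so these controls gave unlike readings, and the reason was not tested. The actin ratio was 18.6 to 23.3 in homozygous and 20.6 to 24.8 in heterozygous CesA4 arrays, which overlapped. It was 21.1 to 22.4 in homozygous and 18.8 to 19.0 in heterozygous CesA6 arrays, which did not, and its part in the CesA6 values was not tested.

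The 3 genes were chosen by their measured changes between homozygous and heterozygous plants and the difference between those changes, so those differences are described and carry no test. WRKY6 was higher in homozygous plants of both lines, while WRKY53 was lower in both. STZ was lower too, by far more in the CesA6 line than in the CesA4 line.

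WRKY6 had signals of 26.03, 29.37 and 31.10 in homozygous CesA4 arrays, against 6.135, 7.446 and 9.211 in heterozygous ones. The homozygous arrays were all above the heterozygous ones and close together. The means were 28.84 ± 2.58 and 7.598 ± 1.54 (SD, n = 3 each), a ratio of 3.80 and a log2 change of 1.58 ± 0.40 (SE of the limma fit, on the scale of log2 of signal plus pseudocount, which understates changes of dim probe sets). WRKY6 in the CesA6 line read 70.85 and 50.19 in homozygous arrays, against 14.42 and 37.51 in heterozygous ones. The groups again did not overlap, but the heterozygous CesA6 arrays stood apart from each other. Their means were 60.52 ± 14.6 and 25.97 ± 16.3 (SD, n = 2 each), a ratio of 2.33 and a log2 change of 1.23 ± 0.50, which became 0.63 without heterozygous CesA6 replicate 1 and 1.83 without replicate 2. WRKY6 was dim: array medians ran from 32.00 to 37.68, and 3 of 3 homozygous CesA4, 3 of 3 heterozygous CesA4 and 2 of 2 heterozygous CesA6 arrays lay below their own median signal. No detection calls were used here.

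WRKY53 moved the other way. Its signals were 25.04, 14.08 and 15.69 in homozygous CesA4 arrays, against 93.50, 116.5 and 147.6 in heterozygous ones. In the CesA6 line they were 48.88 and 35.72 in homozygous arrays, against 190.2 and 150.4 in heterozygous ones. In both lines every homozygous array lay well below every heterozygous one. The means were 18.27 ± 5.92 and 119.2 ± 27.2 in the CesA4 line (SD, n = 3 each), with a log2 change of -2.52 ± 0.25, and 3 of 3 homozygous CesA4 arrays lay below their own array median, as no other array did. They were 42.30 ± 9.31 and 170.3 ± 28.1 in the CesA6 line (SD, n = 2 each), with a log2 change of -1.94 ± 0.30. Only 0.823% of all tested probe sets had a change of larger size in the CesA4 line and 2.00% in the CesA6 line, where 3.50% and 7.00% were larger than that of WRKY6.

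STZ was above the array median on all 10 arrays. It read 333.1, 206.8 and 296.7 in homozygous CesA4 arrays, against 385.1, 349.0 and 345.4 in heterozygous ones. The groups did not overlap, but homozygous replicate 1 lay close below the lowest heterozygous array and replicate 2 far below. The log2 change was -0.39 ± 0.18, and 41.3% of tested probe sets had a larger one. It became -0.19 without homozygous CesA4 replicate 2. STZ in the CesA6 line read 250.1 and 175.8 in homozygous arrays, against 686.8 and 649.7 in heterozygous ones, a log2 change of -1.66 ± 0.21 with 3.28% of probe sets larger. The homozygous arrays of the lines overlapped, so the lines differed mainly in the heterozygous plants, at 359.8 ± 22.0 in CesA4 (n = 3) and 668.3 ± 26.2 in CesA6 (SD, n = 2). The CesA4 change minus the CesA6 change was 1.27 ± 0.28 on the log2 scale for STZ, against 0.34 ± 0.64 for WRKY6 and -0.59 ± 0.39 for WRKY53.

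**Figure D1:**
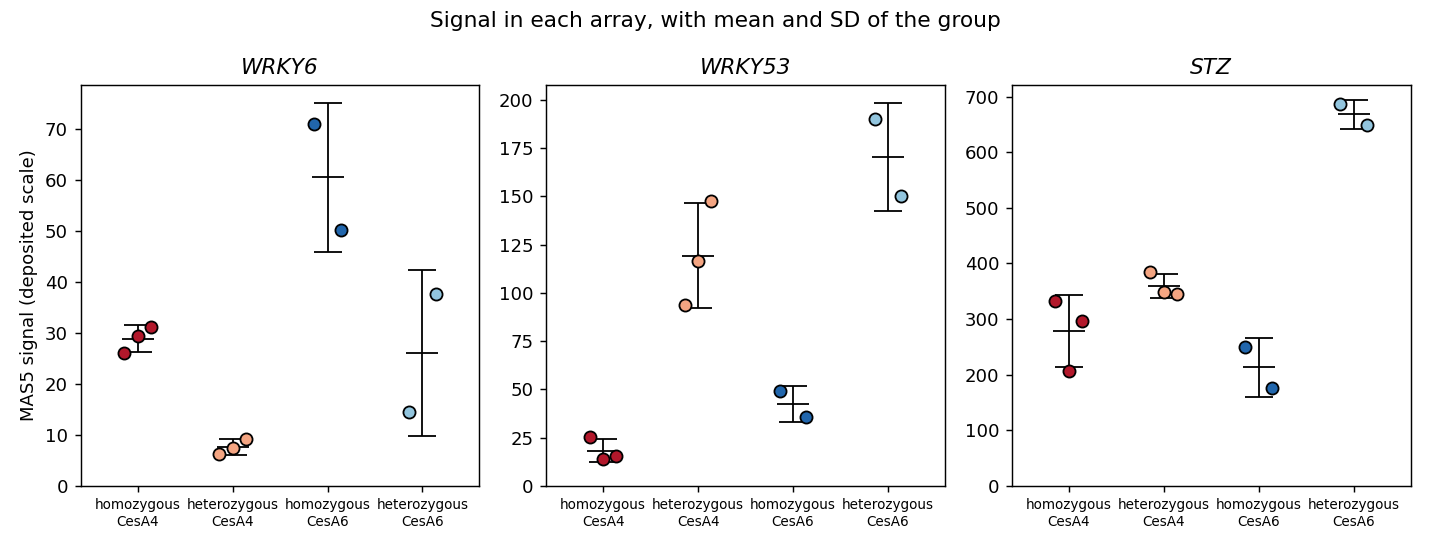
MAS5 signal (linear, deposited scale) of WRKY6, WRKY53 and STZ in each array of the 4 groups, with points for arrays and bars for the group mean and SD. WRKY6 is higher in homozygous arrays of both lines, WRKY53 lower in both, and STZ in heterozygous CesA6 plants, at 668.3, stands above the other 3 groups.

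The order of the group levels differed for each gene. WRKY6 was highest in homozygous CesA6 plants, followed by homozygous CesA4 and heterozygous CesA6 plants, whose arrays overlapped, and lowest in heterozygous CesA4 plants. WRKY53 was highest in heterozygous CesA6 plants, then heterozygous CesA4, homozygous CesA6 and homozygous CesA4 plants, with no overlap between neighbours, although the closest heterozygous arrays of the lines read 150.4 and 147.6. STZ was highest in heterozygous CesA6 plants, then heterozygous CesA4 plants, and its homozygous CesA4 and CesA6 arrays overlapped. For all 3 genes the homozygous and heterozygous arrays of a line did not overlap. In the CesA4 line 15.8% of tested probe sets were higher without overlap and 13.9% lower, and in the CesA6 line, with fewer arrays, 23.1% and 28.6%. In whole rosettes, fewer cells of a type and less RNA per cell cannot be told apart.

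The comparison of the lines, CesA4 minus CesA6 with both genotypes weighted equally, was not among the changes that chose the genes, and was tested. Its p-values share their estimate of spread with those changes, and the genes were chosen with earlier results of these data known. The calls below are therefore not independent of how the genes were chosen. Both WRKY genes had the lower level in the CesA4 line, although one is higher and the other lower in homozygous plants. WRKY6 averaged 18.22 in the CesA4 line and 43.24 in the CesA6 line, a log2 difference of -1.15 ± 0.32 (95% interval -1.81 to -0.49, limma adjusted p = 0.0311). WRKY53 averaged 68.73 in the CesA4 line and 106.3 in the CesA6 line, a log2 difference of -0.81 ± 0.19 (95% interval -1.21 to -0.41, limma adjusted p = 0.0116). STZ averaged 319.4 in the CesA4 line and 440.6 in the CesA6 line, and its log2 difference of -0.26 ± 0.14 did not pass (limma adjusted p = 0.316), with a 95% interval of -0.54 to 0.03. So 2 of the 3 genes passed, where limma called 6.83% of all tested probe sets, made up of 2.69% higher and 4.13% lower in the CesA4 line.

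The difference between the lines had the same sign in both genotypes for the WRKY genes. WRKY6 differed by -0.98 ± 0.45 between homozygous plants and -1.32 ± 0.45 between heterozygous plants of the lines. WRKY53 differed by -1.10 ± 0.28 between homozygous and -0.52 ± 0.28 between heterozygous plants. For both genes every CesA4 array lay below every CesA6 array of the same genotype, as held for 5.0% of tested probe sets. STZ differed by 0.38 ± 0.20 between homozygous and -0.89 ± 0.20 between heterozygous plants, so its average over genotypes joins opposite signs.

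**Figure D2:**
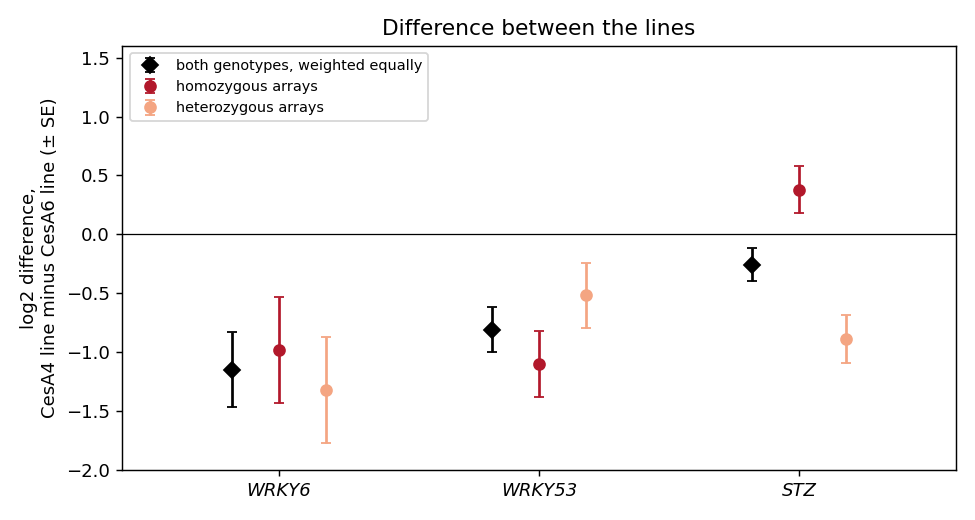
Log2 difference of the CesA4 line minus the CesA6 line with its SE, for both genotypes weighted equally (black), homozygous arrays (red) and heterozygous arrays (orange). All 3 values lie below 0 for WRKY6 and WRKY53, while STZ has 0.38 in homozygous and -0.89 in heterozygous plants.

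The WRKY6 call was lost on leaving out any of 5 arrays: adjusted p was 0.061 and 0.0503 without homozygous CesA4 replicate 1 or 3, 0.164 and 0.0651 without homozygous CesA6 replicate 1 or 2, and 0.212 without heterozygous CesA6 replicate 2 (0.0188 to 0.212 over all alternatives). The WRKY53 call was lost without homozygous CesA6 replicate 1 (adjusted p = 0.0796), without heterozygous CesA6 replicate 1 (adjusted p = 0.109) and with eBayes without trend and robust (adjusted p = 0.0751), within 0.00448 to 0.109 over all alternatives. A processing difference that went with line cannot be told apart from line.

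Other genes of the WRKY family were set beside WRKY6 and WRKY53. Of 68 family members listed, the annotation used named 7, and besides WRKY6 and WRKY53 4 were bright enough to be tested. That annotation left 8730 probe sets unnamed, so most of the family was not examined here. None of these 4 passed in limma in either line. Of all tested probe sets, 15.2% passed in the CesA4 line (8.22% with the homozygous level above and 6.97% with it below) and 8.55% in the CesA6 line (3.73% above and 4.82% below). An unadjusted limma p below 0.05 was found for a different gene in each line, ZAP1 (higher) in the CesA4 line and WRKY47 (lower) in the CesA6 line. No alternative gave a call in these 4 genes in either line. WRKY22 (AT4G01250), known from the MAP kinase response to flagellin, stood at -0.56 ± 0.42 in the CesA4 line and -0.85 ± 0.52 in the CesA6 line. WRKY47 (AT4G01720) stood at -0.29 ± 0.39 and -1.05 ± 0.48, and WRKY20 (AT4G26640) at -0.13 ± 0.16 and -0.08 ± 0.20. ZAP1 (AT2G04880), the gene also called WRKY1, stood at 0.40 ± 0.16 and 0.07 ± 0.19. The median of the 4 was -0.21 in the CesA4 line and -0.47 in the CesA6 line, against 0.02 and -0.04 over all tested probe sets. WRKY42 (AT4G04450), a close relative of WRKY6, read only 0.9377 to 21.76 over the arrays and was too dim to be tested. Between the lines none of the 4 passed in limma, 2 had an unadjusted p below 0.05, and 1 passed without homozygous CesA6 replicate 1. WRKY47 had the lowest value, at -0.91 ± 0.31 (limma adjusted p = 0.0798), on the same side as WRKY6 and WRKY53, and WRKY22 had the highest, at 0.69 ± 0.34.

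STZ belongs to a family of stress-induced C2H2 zinc-finger genes of which 17 were listed, 6 were named and 3 besides STZ were tested. None of these 3 passed in limma in either line or between the lines, and none had an unadjusted p below 0.05. AT2G28200 stood at 0.12 ± 0.31 in the CesA4 line and 0.26 ± 0.38 in the CesA6 line, AT5G03510 at -0.28 ± 0.57 and 0.24 ± 0.70, and AT3G60580 at -0.73 ± 0.74 and -1.27 ± 0.91. The errors of AT5G03510 and AT3G60580 exceeded the size of the STZ change in the CesA4 line (-0.39), and those of AT2G28200 were only a little smaller. A change of that size was therefore unlikely to be called in any of these 3 genes. The STZ change in the CesA6 line, at -1.66, was larger than the errors of all 3 genes.

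Of 23 genes listed for leaf senescence, 4 were named, namely WRKY6, WRKY53, SAG29 and SAG101. SAG29 (AT5G13170), a SWEET-type sugar transporter made in senescing leaves, rose in both lines. It read 198.5, 387.6 and 344.8 in homozygous CesA4 arrays against 27.66, 49.05 and 38.19 in heterozygous ones, a log2 change of 2.89 ± 0.28 (limma adjusted p = 1.85e-06). It read, in the CesA6 line, 767.9 and 452.1 in homozygous arrays against 44.31 and 71.07 in heterozygous ones, a log2 change of 3.32 ± 0.34 (limma adjusted p = 9.24e-06). SAG29 thus had the direction of WRKY6 and the opposite of WRKY53, and between the lines it stood at -0.76 ± 0.22 (limma adjusted p = 0.0526). Between the lines 1 of the 2 other senescence genes passed in 7 of 18 alternatives, among them leaving out homozygous CesA4 replicate 2, heterozygous CesA4 replicate 2 or homozygous CesA6 replicate 2. SAG101 (AT5G14930), a partner of EDS1 in immune signalling first found as a senescence gene, stood at 0.08 ± 0.41 in the CesA4 line and -0.78 ± 0.50 in the CesA6 line and did not pass. SAG101 was also the only named gene of 19 listed for salicylate synthesis and signalling. None of the 21 genes listed as reported regulators, partners or targets of WRKY6, WRKY53 or STZ was named, so they are not analysed here.

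Genes of rapid responses to wounding, touch and elicitors, to which WRKY53 and STZ also respond, were mixed. Of 37 listed, 6 were named and 5 tested, with 1 higher and 2 lower in homozygous CesA4 plants, beside 15.2% of all tested probe sets called there. None was called in the CesA6 line, beside 8.55% of all tested probe sets, although 2 passed when the CesA6 arrays were fitted alone and 1 passed without homozygous CesA4 replicate 2 or homozygous CesA6 replicate 1. The median was -0.92 in the CesA4 line and -0.78 in the CesA6 line, and 3 of the 5 had an unadjusted p below 0.05 in the CesA6 line. Of these lower genes AT1G66090 had 0.7742, 1.247 and 15.16 in homozygous CesA4 arrays against 31.71, 52.69 and 43.92 in heterozygous ones, a log2 change of -2.72 ± 0.54 (limma adjusted p = 0.000796). The size of this change depended on the pseudocount, at -1.65 with 64 and -3.92 with 1, and the call was kept with both. The CesA6 line gave -1.63 ± 0.66. PUB23 (AT2G35930), a U-box ubiquitin ligase that dampens responses to microbial patterns, fell by 0.92 ± 0.28 on the log2 scale in the CesA4 line (limma adjusted p = 0.0262) and stood at -0.71 ± 0.34 in the CesA6 line. The PUB23 call was lost without homozygous CesA4 replicate 3 and without heterozygous CesA4 replicate 1 or 3.

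ORA47 (AT1G74930), an AP2/ERF activator of jasmonate synthesis, rose by 1.31 ± 0.23 on the log2 scale in the CesA4 line (limma adjusted p = 0.00028). Its signals were 94.81, 96.12 and 140.2 in homozygous CesA4 arrays against 47.97, 34.20 and 45.12 in heterozygous ones. It read, in the CesA6 line, 48.50 and 31.36 in homozygous arrays against 77.42 and 69.82 in heterozygous ones, a log2 change of -0.86 ± 0.29 that did not pass (limma adjusted p = 0.0663). The calmodulin-like gene CML38 (AT1G76650) read 152.3, 72.11 and 133.0 in homozygous CesA4 arrays against 117.2, 116.8 and 125.3 in heterozygous ones. Its values in the CesA6 line were 104.9 and 78.68 in homozygous arrays against 157.4 and 160.0 in heterozygous ones. CML38 stood at -0.07 ± 0.22 in the CesA4 line and -0.78 ± 0.27 in the CesA6 line, and passed in neither. As for STZ, its lowest homozygous CesA4 array was replicate 2. The other tested genes of the list differed, with replicate 1 lowest for ORA47 and AT1G66090 and replicate 3 for PUB23 and CML37. CML37 (AT5G42380) stood at -1.05 ± 0.71 and 0.58 ± 0.87.

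**Figure D3:**
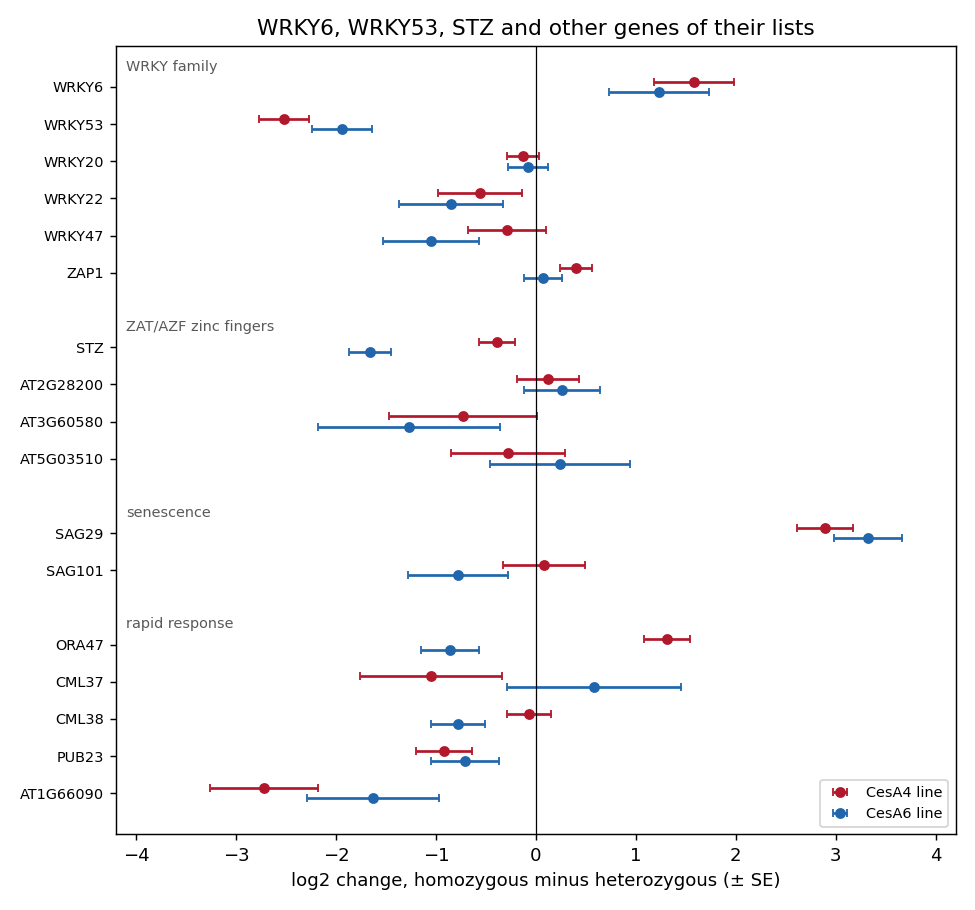
Log2 change, homozygous minus heterozygous, with its SE, in the CesA4 line (red) and the CesA6 line (blue) for WRKY6, WRKY53, STZ and the tested genes of the WRKY, zinc-finger, senescence and rapid-response lists. WRKY6 and SAG29 lie to the right in both lines, WRKY53 and AT1G66090 to the left in both, and ORA47 at 1.31 and -0.86 on opposite sides.

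Ubiquitin ligase genes of the PUB and ATL families, several of which act in stress and immune signalling, were also counted. Of 33 listed, 12 were named and 9 tested. In the CesA4 line 3 were higher and 2 lower, with a median of 0.16, beside 8.22% and 6.97% of all tested probe sets. The lower genes were PUB26 and PUB23, and PUB23 was already counted in the rapid-response list. The CesA6 line had 2 higher and none lower, with a median of 0.24, beside 3.73% and 4.82% of all tested probe sets. The count in the CesA4 line fell to 3 without homozygous CesA4 replicate 2 or 3 or heterozygous CesA4 replicate 1, and to 2 without heterozygous CesA4 replicate 3. PUB19 (AT1G60190), a negative regulator of abscisic acid responses, rose by 2.21 ± 0.22 in the CesA4 line and 3.25 ± 0.27 in the CesA6 line (limma adjusted p = 2.28e-07 and 5.61e-08). PUB43 (AT1G76390) rose by 0.73 ± 0.18 and 1.12 ± 0.22. PUB26 (AT1G49780), a ligase acting on the immune kinase BIK1, fell by 0.99 ± 0.27 in the CesA4 line, a call lost without homozygous CesA4 replicate 2, without heterozygous CesA4 replicate 3 and when eBayes ran without trend and robust, and stood at -0.44 ± 0.33 in the CesA6 line. ATL5 (AT3G62690) rose by 0.76 ± 0.25 in the CesA4 line, a call lost in 11 of 19 alternatives, among them leaving out homozygous CesA4 replicate 2 or 3, any heterozygous CesA4 array or either heterozygous CesA6 array. Between the lines, PUB24 (AT3G11840), of the same small group as PUB23, was lower in the CesA4 line by a log2 difference of -1.10 ± 0.30 (limma adjusted p = 0.0257), a call lost in 5 of 17 alternatives, namely eBayes without trend and robust and leaving out heterozygous CesA4 replicate 2, either homozygous CesA6 array or heterozygous CesA6 replicate 1.

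The genes with the pattern most similar to each of the 3 were sought among the 8650 named and tested genes, leaving out the 3 themselves. The measure was Pearson's r of log2 values over the 10 arrays. This r mostly reflects the differences between the 4 groups, and the arrays share their scaling. The genes were picked by r on all 10 arrays, so likeness in group levels or between replicates follows largely from the choice. The same holds for r on leaving out an array. The genes most like WRKY53 were AT5G19240 (r = 0.996), AT5G24210 (r = 0.989) and AT5G03350 (r = 0.975). AT5G19240 averaged 162.9 in homozygous and 743.0 in heterozygous CesA4 plants and 333.4 in homozygous and 965.3 in heterozygous CesA6 plants. It followed WRKY53 in having the higher level in the CesA6 line in each genotype. Leaving out any single array kept its r between 0.995 and 0.999. For WRKY53, 55 genes had r above 0.9, against 34 for WRKY6 and 13 for STZ.

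The genes most like WRKY6 were APL3 (AT4G39210, r = 0.967), AT3G05340 (r = 0.954) and AT1G23330 (r = 0.952). APL3, a large subunit of the starch-synthesis enzyme ADP-glucose pyrophosphorylase, averaged 382.6 in homozygous and 189.1 in heterozygous CesA4 plants and 454.8 in homozygous and 321.3 in heterozygous CesA6 plants. Its log2 changes of 1.01 ± 0.16 in the CesA4 line and 0.51 ± 0.19 in the CesA6 line were smaller than those of WRKY6. As with WRKY6, heterozygous CesA6 replicate 2 lay above replicate 1 in all 3 genes, which their choice by r favours. For AT3G05340 the gap was small, at 0.13 against 0.05 (log2 value minus the gene's mean).

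The genes most like STZ were AR781 (AT2G26530, r = 0.965), ARL (AT2G44080, r = 0.949) and AT5G09850 (r = 0.933). AR781 averaged 70.34 in homozygous and 89.13 in heterozygous CesA4 plants and 56.05 in homozygous and 242.3 in heterozygous CesA6 plants. ARL, an ARGOS-like gene that promotes cell expansion in growing organs, averaged 58.69 in homozygous and 96.22 in heterozygous CesA4 plants and 36.61 in homozygous and 148.0 in heterozygous CesA6 plants. Both, picked for their r with STZ, had its high level in heterozygous CesA6 plants, with CesA6 log2 changes of -2.10 ± 0.25 and -1.96 ± 0.26.

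**Figure D4:**
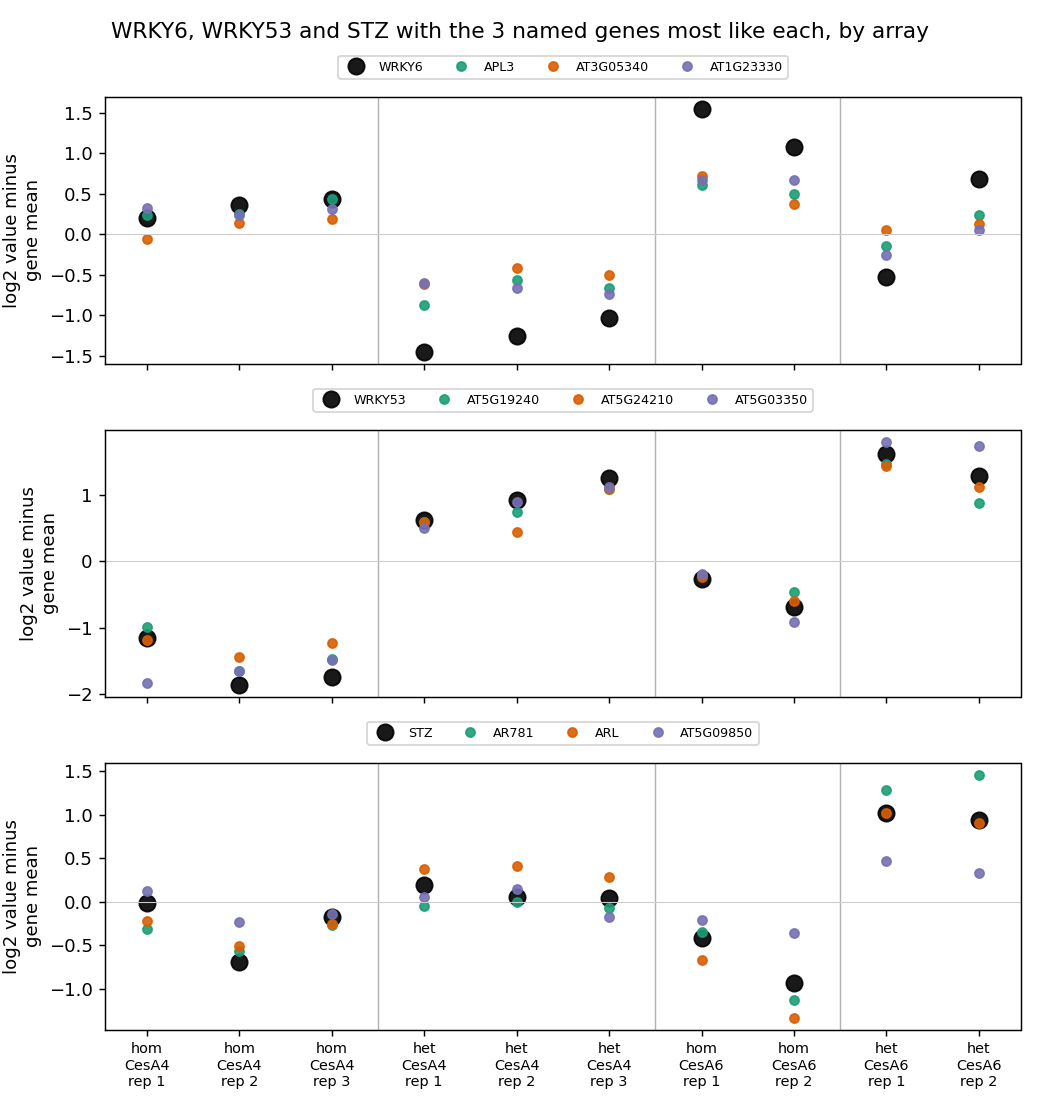
Log2 value minus the gene's mean over the 10 arrays, by array, for WRKY6, WRKY53 and STZ (large black points) and the 3 named genes most like each (small coloured points), with grey lines between groups. The genes follow WRKY53 in its order of groups, with AT5G03350 lower on homozygous CesA4 replicate 1. Those like WRKY6 show smaller differences between groups, and AT3G05340 is about level in homozygous CesA4 and heterozygous CesA6 plants.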

How the data were processed

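The deposited files hold MAS5 intensities (linear scale), made with GCOS per the submitters' processing notes. Their 2% trimmed mean was 100.01 on each array. Here arrays were rescaled to 500, 16 was added (3.2 on the deposited scale) and log2 was taken. Without 64 controls and the dimmest 30%, 15922 of 22810 probe sets remained. limma (version 3.58.1, R 4.3.3) was fitted with a mean per group over all 10 arrays and eBayes with trend and robust, leaving 6 residual degrees of freedom, and was tested on simulated data. Adjusted p-values are by Benjamini-Hochberg over all 15922, with a threshold of 0.05. GEO's platform annotation gave 13513 probe sets with 1 gene, 503 with several and 8730 unnamed, and 13436 of the first were matched by gene ID to RefSeq (TAIR10.1), used for names only. Where probe sets shared a gene, the one with the highest mean was used.

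The genes and lists were chosen with earlier results of these data known. ZAP1 and the PUB and ATL list were added once the annotation had been read. By rule the text names the 3 genes, tested WRKY genes (with values where they passed), up to 4 called genes per other list, line and direction, any listed regulator or target, and the 3 genes with the highest r to each. Outside the rule, and chosen after their values were seen, are the values of the WRKY genes that did not pass, WRKY42, the other C2H2 genes, SAG101, CML37, CML38 and PUB24. Of the tissue markers, 2 of 7 for green leaf, 1 of 3 for root and none for flower or seed were named. Alternatives changed the pseudocount, scaling, filter, eBayes settings, arrays fitted and the replicate block.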

Additional observations from a re-analysis of the deposited data

Results flagged for a closer look

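The changes of ORA47 in the lines differed. The CesA4 change minus the CesA6 change was 2.17 ± 0.37 on the log2 scale (limma adjusted p = 0.00754), with every homozygous array above the heterozygous ones in the CesA4 line and below them in the CesA6 line. limma called the changes of 0.578% of tested probe sets different. The call was lost without homozygous CesA6 replicate 2 (adjusted p = 0.0689), without heterozygous CesA6 replicate 1 (adjusted p = 0.0729) and with eBayes without trend and robust (adjusted p = 0.238), within 0.00337 to 0.238 over its alternatives.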

How the results depend on the processing

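WRKY6, WRKY53 and STZ kept the direction of their changes in both lines and of their line difference under every alternative run. The 50% filter left WRKY6 out. With a pseudocount of 64 the CesA4 change became 1.03 for WRKY6 and -2.08 for WRKY53. Leaving out 1 array gave WRKY6 changes of 1.48 to 1.68 in the CesA4 line and 0.63 to 1.83 in the CesA6 line, and WRKY53 changes of -2.74 to -2.36 and -2.15 to -1.73. For STZ it gave -0.53 to -0.19 and -1.91 to -1.41. The line difference then ran from -1.45 to -0.85 for WRKY6, -0.92 to -0.71 for WRKY53 and -0.38 to -0.13 for STZ. With eBayes without trend and robust the WRKY53 line difference was -0.81, with the call lost. Calls over all probe sets were 2417 in the CesA4 line (1943 to 2353 leaving out 1 array), 1361 in the CesA6 line (719 to 1558, with 719 without homozygous CesA6 replicate 2 and 781 and 790 without heterozygous CesA6 replicate 1 or 2) and 1087 between the lines (503 to 1112, with 667 without homozygous CesA6 replicate 1 and 503 without heterozygous CesA6 replicate 1), and 744 and 424 for the last pair with eBayes without trend and robust. The cause was not tested.

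Deviations from the group mean correlated at 0.019 to 0.0784 between same-numbered arrays of a line. With 2 or 3 arrays in a group, these values cannot tell whether same-numbered arrays shared a step of handling. With the replicate block the line difference was -1.23 for WRKY6, -0.85 for WRKY53 and -0.27 for STZ, with no call changed, and the calls over all probe sets were 2584, 1519 and 1047. The block raised the calls among rapid-response genes in the CesA6 line to 2 and those of senescence genes between the lines to 1.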
